A study of Mus musculus with 24 samples.

Results

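Phase II conjugation enzymes were taken as the genes whose symbol begins with Gsta, Gstk, Gstm, Gsto, Gstp, Gstt or Gstz and a number, with Ugt1, Ugt2 or Ugt3, or with Sult and a number, with pseudogene symbols left out. This rule used no measured value and found 63 members among the 41388 genes of the deposited files, of which 22 were glutathione S-transferases (Gst), 20 UDP-glucuronosyltransferases (Ugt) and 21 sulfotransferases (Sult).

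These enzymes make drugs, steroids, bile acids, bilirubin and reactive products of lipid oxidation more soluble by joining them to a charged or polar group. Glutathione S-transferases are mostly cytosolic and use glutathione, UDP-glucuronosyltransferases sit in the endoplasmic reticulum and use UDP-glucuronate, and sulfotransferases are cytosolic and take sulfate from PAPS. Liver holds high levels of all 3 classes, and hepatic transporters then export the conjugates into bile or blood.

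The members were measured by bulk RNA sequencing of livers from male mice on a C57BL/6J background. WT mice carried the Lpin1-floxed allele without Cre, and their Adn-Lpin1-/- littermates carried the same allele with a Cre recombinase driven by the adiponectin promoter, which deletes the phosphatidic acid phosphohydrolase lipin 1 in adipocytes and not in hepatocytes. From 8 weeks of age the mice ate a low-fat diet (LFD) with 10% or a high-fat diet (HFD) with 60% of kcal from fat, and all were fasted for 4 hours before sacrifice. The sample labels state 16 weeks of feeding, whereas the methods text states 5 weeks. The 4 groups (WT LFD, Adn-Lpin1-/- LFD, WT HFD and Adn-Lpin1-/- HFD) were each represented by 5 mice sequenced singly and by 1 pool of their RNA, and the pools were kept out of the tests because they repeat the same mice.

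The promoters of the members are shown first for a feature that the rule did not use. RefSeq start sites on GRCm38.p6 were at hand for 55 of the 63 members, and the windows from 250 bases before to 50 after each start were searched on both strands. The motif GTTAATNAT of the hepatocyte factor HNF1 was present in 8 members, or 14.5%, and in 0.94% of 27025 genes with such a window. All 8 windows are printed 5′ to 3′ along the strand of the gene, up to the start site at most, with the motif in capitals, because they are the members that share this feature. The motif lay between -98 and -19 bases from the start site.
Ugt1a1, chr1:88211890-88211948, plus strand: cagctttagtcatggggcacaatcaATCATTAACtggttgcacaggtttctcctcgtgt
Ugt1a9, chr1:88070660-88070718, plus strand: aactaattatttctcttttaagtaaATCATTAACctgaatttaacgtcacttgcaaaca
Ugt1a10, chr1:88055312-88055370, plus strand: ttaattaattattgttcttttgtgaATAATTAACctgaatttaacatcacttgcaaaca
Sult1d1, chr5:87569052-87569110, minus strand: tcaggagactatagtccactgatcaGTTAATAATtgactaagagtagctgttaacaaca
Sult2a3, chr7:14123066-14123124, minus strand: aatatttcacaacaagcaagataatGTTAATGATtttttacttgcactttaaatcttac
Sult2a4, chr7:13989662-13989720, minus strand: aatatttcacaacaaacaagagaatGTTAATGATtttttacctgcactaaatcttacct
Sult2a5, chr7:13623914-13623966, plus strand: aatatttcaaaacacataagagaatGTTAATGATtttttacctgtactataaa
Sult2a6, chr7:14254908-14254966, minus strand: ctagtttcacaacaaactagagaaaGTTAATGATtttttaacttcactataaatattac

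The 4 Sult2a windows read almost alike, as do those of Ugt1a9 and Ugt1a10, so the 8 matches are not independent of each other. They belong to genes of very different level, since Sult1d1, Ugt1a1 and Ugt1a9 were among the tested members while the 4 Sult2a genes held at most 8 counts in any mouse.

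The other 3 motifs searched had lower shares in members than in all genes. TGACNNNGC, the core of the antioxidant response element bound by NRF2, was found in 3 members (5.45%, against 14% of genes), GCGTG, the core bound by the aryl hydrocarbon receptor, in 11 (20%, against 35.2%), and TTCNNNGAA, a STAT site, in 4 (7.27%, against 9.55%). In Gstm5 the matches to the first and the second overlapped, and the STAT letters read the same on both strands. A match describes letters in these windows and not a bound site. Sequence further from the start sites was not searched, so a low share does not mean that members lack the element. The windows of 3 members that return below, Gstm7 with the antioxidant core and Gstm6 and Gsta1 with the STAT letters, are printed in the same way.
Gstm7, chr3:107931710-107931768, minus strand: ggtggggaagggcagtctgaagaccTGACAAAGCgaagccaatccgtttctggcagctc
Gstm6, chr3:107943493-107943551, minus strand: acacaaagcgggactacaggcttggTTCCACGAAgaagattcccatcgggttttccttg
Gsta1, chr9:78230482-78230540, plus strand: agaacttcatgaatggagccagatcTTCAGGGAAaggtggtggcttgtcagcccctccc

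Total counts ranged from 36260187 to 81072794 per mouse, and all 5 WT LFD totals (36260187 to 45999456) lay below every total of the other groups (51095146 and above), so that depth and this group cannot be told apart. Genes above 1 CPM (a count scaled to the library total) in 4 or more of the 20 mice were tested, which kept 13052 genes and 42 members, namely 20 of 22 Gst, 15 of 20 Ugt and 7 of 21 Sult genes. A gene was called where edgeR's quasi-likelihood test gave a Benjamini-Hochberg adjusted p of at most 0.05 over all tested genes. CPM values of single genes are on library sizes scaled by edgeR's TMM method, and fold changes are on the log2 scale with their SE. Comparisons of level between genes use the deposited RPKM, which also divides by exon length. The 10 hepatocyte markers summed to 90609 to 141422 CPM in the 20 livers.

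Among the glutathione S-transferases the 2 highest genes were Gstp1, the main pi-class enzyme, at a mean of 1163 RPKM over the 20 mice and Gstm1 of the mu class at 895 RPKM. Gstz1, which isomerises maleylacetoacetate in tyrosine breakdown, followed at 398 RPKM, Gsta3 of the alpha class at 227, Gstt1 of the theta class at 188, Gstk1, a kappa-class enzyme of mitochondria and peroxisomes, at 130, and Gsto1, a thioltransferase of the omega class, at 37.0 RPKM. Over the 20 mice Ugt2b5 had the highest mean of the glucuronosyltransferases at 217 RPKM, followed by Ugt2b36 (176 RPKM) and Ugt2b1 (158 RPKM). Ugt3a2 reached 89.8 RPKM, Ugt2a3 81.1 and Ugt1a1, the bilirubin-conjugating enzyme, 25.3 RPKM. Ugt1a1 shares 82.7% of its exonic bases with other genes, where reads could not be assigned to 1 gene. RPKM still divides by its full exon length, so the level of Ugt1a1 may be too low and its place below Ugt3a2 and Ugt2a3 is uncertain. The sulfotransferases were led by Sult1a1, the phenol sulfotransferase, at 199 RPKM and by Sult2a8, a liver enzyme that sulfates bile acids, at 186 RPKM, with Sult5a1 at 8.56 RPKM. These are means over all groups, and the order turned in single groups. In Adn-Lpin1-/- LFD the mean of Gstm1 (973 RPKM) was above that of Gstp1 (893), in WT LFD that of Ugt2b1 (227) was above that of Ugt2b5 (217), and the order of Sult1a1, Gstt1 and Sult2a8 also differed between groups.

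**Figure D1:**
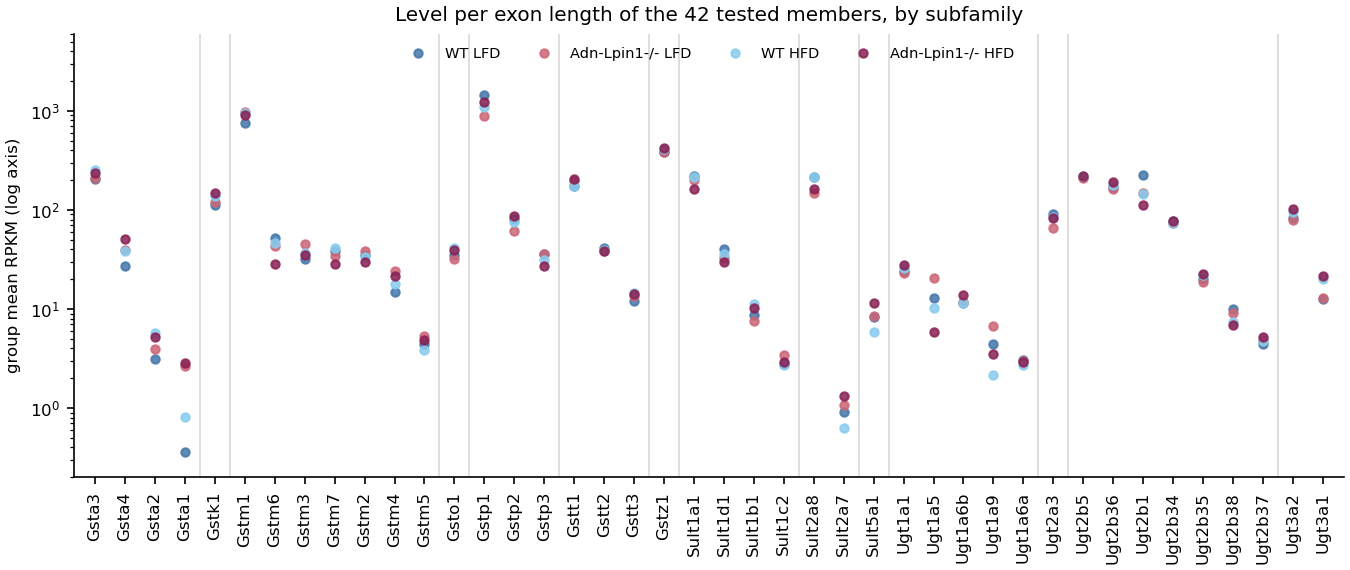
Mean RPKM (log axis) of each of the 42 tested members in the 4 groups, ordered by level within a subfamily, with grey lines between subfamilies. Gstp1 and Gstm1 stood at the top, Gsta1 and Sult2a7 at the bottom, and the 4 groups lay close together for most members, with a wide spread for Gsta1, Ugt1a5 and Ugt1a9.

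The other 21 members were under the limit, and 14 of them were sulfotransferases. Ugt1a7c held 15 to 114 counts per mouse and passed 1 CPM in 3 mice, Sult1e1, the estrogen sulfotransferase, 4 to 94, Ugt2a2 15 to 62, Ugt1a10 5 to 40, Ugt1a2 5 to 35 and Ugt1a8 0 to 11. Gsto2, Sult2b1, Sult4a1 and Sult6b1 held 0 to 12 counts, Sult3a1 0 to 10, Sult2a1 and Sult2a6 0 to 8, Gstt4 0 to 6, Sult2a2, Sult2a4 and Sult6b2 0 to 4, and Sult1c1, Sult2a3 and Sult3a2 0 to 2. Sult2a5 was at 0 in every mouse. The highest mean of the Sult3, Sult4 and Sult6 subfamilies was 0.0338 RPKM for Sult3a1, 0.0149 for Sult4a1 and 0.0339 for Sult6b1. Low counts in these genes may be undercounts where near copies share reads, since only reads that aligned to 1 place and to 1 gene were counted. This touches the Ugt1a genes, which are transcribed from separate first exons into common exons and share 50.3% to 82.7% of their exonic bases with other genes. It also touches genes whose 50-base words occur in the transcripts of another gene, at 93.6% for Ugt2a2, 90.5% for Gsta1, 62.1% for Sult2a2, 54.3% for Gstp2, 49.8% for Gsta2, 41.7% for Ugt2b5, 37.4% for Ugt2b38, 34.5% for Sult2a5, 33.7% for Gstp1, 33.2% for Sult2a1 and under 30% for every other member outside Ugt1a, so values of these genes are uncertain.

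Mouse 5 of WT LFD, of WT HFD and of Adn-Lpin1-/- LFD stood apart from their groups over the 42 tested members. Their mean absolute log2 distance from the group median was 0.342, 0.376 and 0.305, against 0.105 to 0.165, 0.131 to 0.194 and 0.11 to 0.198 for the other mice of these groups and 0.146 to 0.232 in Adn-Lpin1-/- HFD. Over all tested genes the same 3 distances were 0.191, 0.181 and 0.172, against 0.104 to 0.181 in the other mice. A check on the 316 genes other than members that were called by diet in Adn-Lpin1-/- put the WT mice on the side of their labelled diet, at a mean of -0.239 to -0.055 in WT LFD and 0.121 to 0.247 in WT HFD. Each result was therefore also computed without the 3 mice together, an alternative chosen after seeing the data. These mice were picked by their distance over the same 42 members, so leaving them out tends to narrow the spread of members. Lower p-values and added calls without them are therefore no further support for a result.

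Summed over a class, Sult transcripts were lower in Adn-Lpin1-/- mice on either diet. The sum over the 21 genes was 1024, 929, 1149, 1217 and 933 CPM in mice 1 to 5 of WT LFD and 805, 726, 822, 809 and 689 CPM in Adn-Lpin1-/- LFD. It was 1029, 1102, 1019, 1026 and 924 CPM in WT HFD and 620, 685, 640, 893 and 841 CPM in Adn-Lpin1-/- HFD. The genotypes did not overlap on either diet, and no test was run on sums, of which Sult1a1 and Sult2a8 made up most. Taken apart, the Sult1 genes overlapped between the genotypes on both diets, whereas the Sult2 genes, nearly all Sult2a8, did not. The Ugt sum ranged from 2248 to 2608 CPM in WT LFD, 1867 to 2265 in Adn-Lpin1-/- LFD, 1992 to 2560 in WT HFD and 1887 to 2240 in Adn-Lpin1-/- HFD, and the Gst sum from 4260 to 5318, 4040 to 4992, 4500 to 5765 and 3845 to 5476 CPM in the same order. Both of these overlapped between all groups compared.

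**Figure D2:**
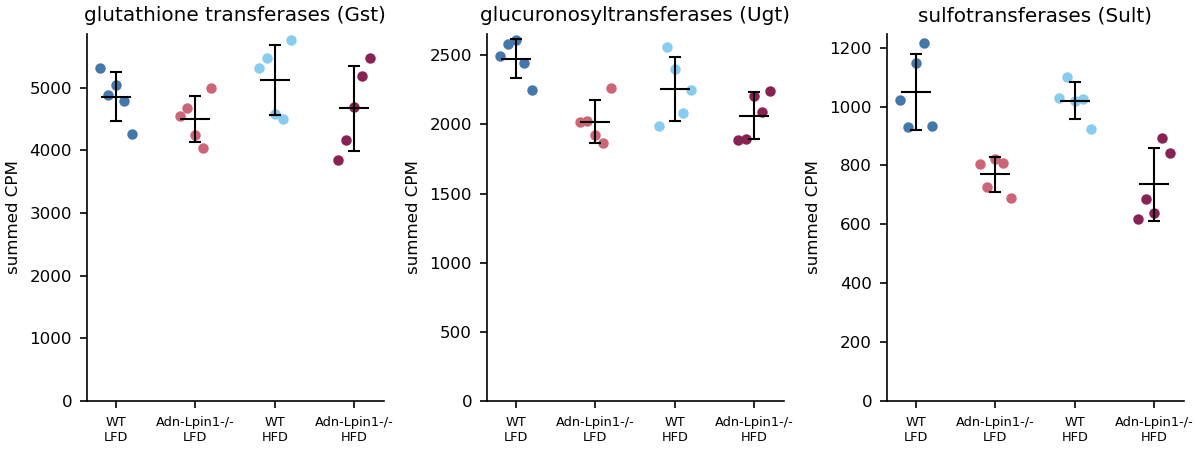
Summed CPM of all Gst, Ugt and Sult members in each mouse (points, mice 1 to 5 from left) with the group mean ± SD (bars, n = 5), on axes that start at 0. For Sult, every Adn-Lpin1-/- mouse (620 to 893 CPM) lay below every WT mouse (924 to 1217 CPM), whereas the Gst and Ugt groups overlapped.

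Genotype on the LFD was compared first, to see how loss of adipocyte lipin 1 went with hepatic conjugation enzymes without a fat load. Of the 42 tested members, 6 were called (14.3%), against 14.4% of all tested genes, so members were called about as often as other genes. Sult2a8, Ugt2b1, Ugt2a3 and Sult1b1 fell, where 8.11% of all genes fell, and Gstm4 and Gsta1 rose, where 6.27% of all genes rose. By class, 2 Gst genes rose, 2 Ugt genes fell and 2 Sult genes fell. The median log2 fold change of the members was -0.11, against 0.01 over all genes, and 26 of 42 members were below 0, against 48.8% of all genes.

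Sult2a8 (ENSMUSG00000030378, GRCm38 chromosome 7, 14410686 to 14446769) measured 575, 506, 594, 587 and 494 CPM in mice 1 to 5 of WT LFD and 371, 358, 336, 338 and 356 CPM in Adn-Lpin1-/- LFD. All 5 Adn-Lpin1-/- mice were below all 5 WT mice, and the spread within the former was small (352 ± 14.7 CPM against 551 ± 47.3 CPM, SD, n = 5). The two-sided exact permutation p was 0.00794, the smallest that 5 mice against 5 can give. The change was -0.65 ± 0.10 (edgeR adjusted p = 0.000341), which is 1.57-fold lower, and it was -0.69 without the 3 mice that stood apart (adjusted p = 0.00136).

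Ugt2b1 (ENSMUSG00000035836, chromosome 5, 86916638 to 86926530), a glucuronosyltransferase of phenols and steroids, read 595, 739, 698, 630 and 416 CPM in WT LFD and 452, 329, 372, 311 and 397 CPM in Adn-Lpin1-/- LFD. Only mouse 5 of WT LFD reached into the range of the other genotype. The change was -0.73 ± 0.16 (edgeR adjusted p = 0.00477) and -0.86 without the 3 mice (adjusted p = 0.0022).

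Ugt2a3 (ENSMUSG00000035780, chromosome 5, 87324972 to 87337195), another member of the same gene cluster, read 204, 205, 216, 212 and 169 CPM in WT LFD and 155, 127, 122, 135 and 144 CPM in Adn-Lpin1-/- LFD, with no overlap. It fell by 0.56 ± 0.11 on the log2 scale (edgeR adjusted p = 0.00223), and by 0.64 without the 3 mice (adjusted p = 0.00372). Sult1b1 (ENSMUSG00000029269, chromosome 5, 87513339 to 87538195), which sulfates thyroid hormones, lies at the other end of that cluster. It read 21.2, 23.4, 26.7, 27.8 and 26.8 CPM in WT LFD and 22.8, 17.8, 20.4, 21.5 and 21.2 CPM in Adn-Lpin1-/- LFD, so that mouse 1 of WT LFD lay inside the range of the other genotype. Its change was small, -0.28 ± 0.08 (edgeR adjusted p = 0.0247), and was not called without the 3 mice (-0.26, adjusted p = 0.0799) or where WT LFD lacked mouse 3 or 4 or the other genotype lacked mouse 2 (-0.23 to -0.26, adjusted p = 0.0627 to 0.0748).

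The 2 members that rose were glutathione S-transferases. Gstm4 (ENSMUSG00000027890, chromosome 3, 108040408 to 108044894) read 24, 30.4, 20.1, 26.2 and 33.2 CPM in WT LFD and 35.6, 40.7, 40.4, 33.9 and 51.8 CPM in Adn-Lpin1-/- LFD, with every Adn-Lpin1-/- mouse higher. Its change was 0.60 ± 0.14 (edgeR adjusted p = 0.00922) and 0.58 without the 3 mice (adjusted p = 0.0155). Gsta1 (ENSMUSG00000074183, chromosome 9, 78230656 to 78242684), an alpha-class enzyme that acts on lipid peroxides, was close to the limit at 0.0515, 0.225, 0.328, 0.235 and 0.986 CPM in WT LFD and 0.587, 3.2, 0.797, 0.981 and 6.7 CPM in Adn-Lpin1-/- LFD. Gsta1 passed 1 CPM in 8 mice over all groups, none of them WT LFD, and without the Adn-Lpin1-/- mice it would not have been tested. The groups overlapped, and mice 2 and 5 of Adn-Lpin1-/- LFD carried most of the increase of 2.74 ± 0.71 (edgeR adjusted p = 0.0134), which was 1.91 and not called without mouse 5 of Adn-Lpin1-/- LFD (adjusted p = 0.0622) and 2.73 without the 3 mice (adjusted p = 0.00765).

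Gstp1, the member of highest mean RPKM over the 20 mice, was not called on the LFD. It read 1336, 1448, 1309, 1015 and 605 CPM in WT LFD and 755, 831, 613, 540 and 592 CPM in Adn-Lpin1-/- LFD. All but mouse 5 of WT LFD lay above the other genotype, and the change was -0.78 ± 0.31 (edgeR adjusted p = 0.101). Over all 4 groups Gstp1 ran from 500 to 1603 CPM, with the highest mouse in Adn-Lpin1-/- HFD.

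**Figure D3:**
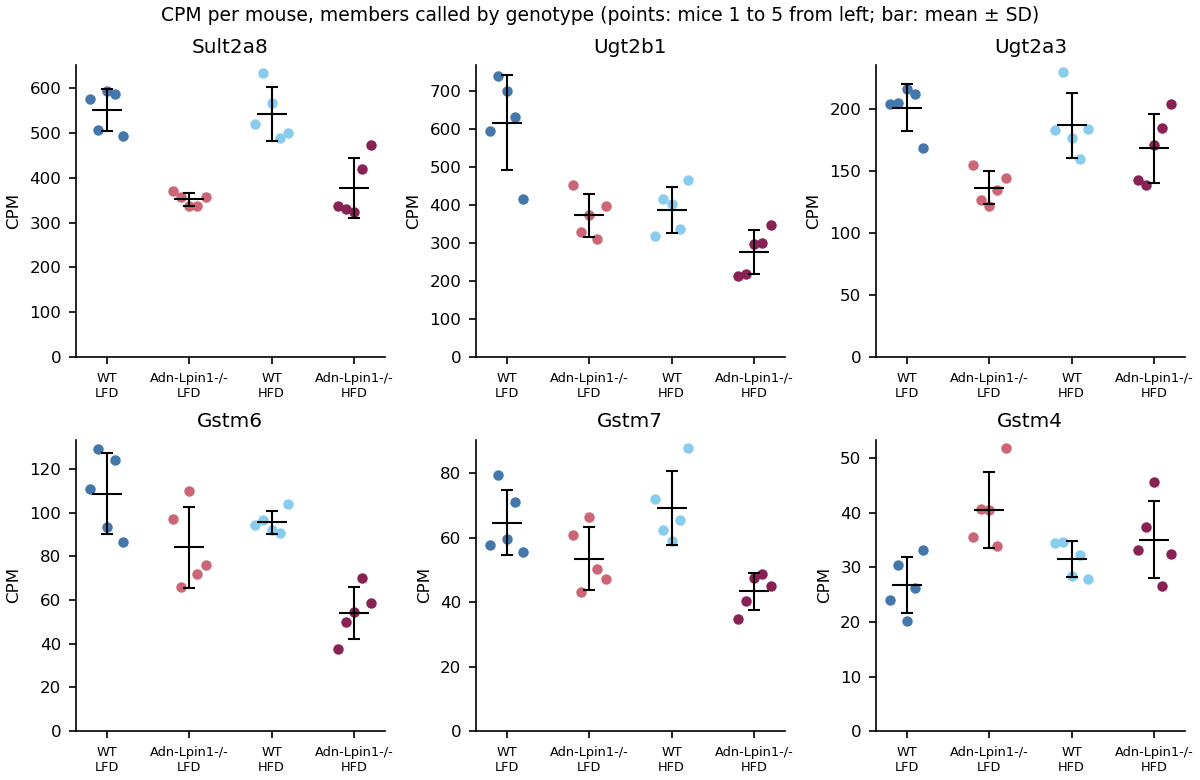
CPM of Sult2a8, Ugt2b1, Ugt2a3, Gstm6, Gstm7 and Gstm4 in each mouse (points, mice 1 to 5 from left) with the group mean ± SD (bars, n = 5), on axes that start at 0. Sult2a8 was lower in Adn-Lpin1-/- mice on both diets without overlap, and Gstm6 and Gstm7 did not overlap between genotypes on the HFD.

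In the same contrast 1 of the 10 hepatocyte markers fell and none rose, and their sum was 122267 to 129554 CPM in WT LFD and 90609 to 118678 CPM in Adn-Lpin1-/- LFD. Of the 10 markers each of sinusoidal endothelium and of stellate cells, 4 rose in either list, with sums of 129 to 208 against 185 to 321 CPM and 110 to 207 against 191 to 305 CPM. None of 11 Kupffer cell and macrophage markers was called (184 to 347 against 236 to 465 CPM), and none of the markers of these lists was at 0 in every mouse. The part of these shifts in the member changes was not tested, and in bulk liver fewer cells of a type and less RNA per cell cannot be told apart. With each library's trend of counts with GC content removed, Sult1b1, at 37.2% GC, was -0.08 and no longer called (adjusted p = 0.606), and Sult2a8, at 36.7% GC, was -0.44 (adjusted p = 0.00379).

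On the HFD the same question was asked in other mice. Of the 42 members 7 were called (16.7%), against 18.6% of all tested genes. Gstm6, Gstm7, Sult2a8, Ugt2b1, Sult1a1 and Sult1b1 fell, where 8.78% of all genes fell, and Sult2a7 rose, where 9.87% of all genes rose. The median of the members was -0.10, against 0.00 over all genes, and 30 of 42 members were below 0, against 49.7% of all genes. Sult2a8, Ugt2b1 and Sult1b1 were thus lower on both diets, in contrasts that share no mice.

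The mu-class neighbours Gstm6 (ENSMUSG00000068762, chromosome 3, 107938847 to 107943749) and Gstm7 (ENSMUSG00000004035, chromosome 3, 107926334 to 107931817), whose promoter windows are printed above, had the largest decreases among called members. Gstm6 read 94.3, 96.8, 92.3, 90.9 and 104 CPM in WT HFD and 37.7, 49.8, 54.6, 70.3 and 58.6 CPM in Adn-Lpin1-/- HFD. Gstm7 read 72, 62.3, 58.9, 65.7 and 87.9 CPM in WT HFD and 34.9, 40.3, 47.7, 48.9 and 45.1 CPM in Adn-Lpin1-/- HFD. Neither gene overlapped between the genotypes. The change was -0.82 ± 0.15 for Gstm6 (edgeR adjusted p = 0.00145) and -0.68 ± 0.13 for Gstm7 (edgeR adjusted p = 0.00234), and without the 3 mice -0.80 (adjusted p = 0.00389) and -0.59 (adjusted p = 0.00672). Their low-fat values were also lower on average in Adn-Lpin1-/- mice but were not called (Gstm6 -0.37 ± 0.15, adjusted p = 0.11, and Gstm7 -0.27 ± 0.13, adjusted p = 0.183). Gstm4, from the same chromosome 3 cluster, went from called on the LFD to 0.15 ± 0.14 on the HFD (edgeR adjusted p = 0.486).

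Sult2a8 read 519, 635, 567, 489 and 500 CPM in WT HFD and 336, 330, 324, 419 and 474 CPM in Adn-Lpin1-/- HFD. The genotypes again did not overlap, although mice 4 and 5 of Adn-Lpin1-/- HFD came near the lowest WT mice. The change was -0.53 ± 0.10 (edgeR adjusted p = 0.00191), -0.57 without the 3 mice (adjusted p = 0.00252) and -0.31 with the GC trend removed (adjusted p = 0.0234). Sult1a1 (ENSMUSG00000030711, chromosome 7, 126672865 to 126676432) read 357, 306, 317, 394 and 311 CPM in WT HFD and 183, 243, 186, 337 and 231 CPM in Adn-Lpin1-/- HFD, with mouse 4 inside the WT range. It fell by 0.52 ± 0.16 on the log2 scale (edgeR adjusted p = 0.0345), and by 0.56 without the 3 mice (adjusted p = 0.0313). The call was lost without mouse 1 or 4 of WT HFD or mouse 1, 2, 3 or 5 of Adn-Lpin1-/- HFD (-0.44 to -0.53, adjusted p = 0.0541 to 0.0884).

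Sult1b1 read 33.7, 30.9, 31.7, 34.6 and 31.9 CPM in WT HFD and 27.7, 29, 23.7, 27.7 and 26 CPM in Adn-Lpin1-/- HFD, with no overlap. The change was -0.28 ± 0.08 (edgeR adjusted p = 0.0191), -0.30 without the 3 mice (adjusted p = 0.0282), -0.24 and not called where Adn-Lpin1-/- HFD lacked mouse 3 (adjusted p = 0.0511) and -0.08 with the GC trend removed (adjusted p = 0.588). Ugt2b1 read 317, 414, 402, 336 and 464 CPM in WT HFD and 214, 219, 298, 300 and 346 CPM in Adn-Lpin1-/- HFD, where only mouse 5 entered the WT range. Its change of -0.49 ± 0.16 (edgeR adjusted p = 0.0359) was not called without the 3 mice (-0.43, adjusted p = 0.0514), with the GC trend removed (-0.34, adjusted p = 0.131; 40.2% GC) or without mouse 2, 3 or 5 of WT HFD or mouse 1 or 2 of Adn-Lpin1-/- HFD (-0.41 to -0.48, adjusted p = 0.0618 to 0.101). Ugt2a3 overlapped between the genotypes on the HFD (-0.15 ± 0.11, adjusted p = 0.359).

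The member that rose, the hydroxysteroid sulfotransferase Sult2a7 (ENSMUSG00000094156, chromosome 7, 14465159 to 14492926), lies next to Sult2a8 and was near the limit of detection. Sult2a7 passed 1 CPM in 6 mice, none of them WT HFD, and without the Adn-Lpin1-/- HFD mice it would not have been tested. Its place among the tested members thus depended on the group where it was high. It read 0.492, 0.91, 0.692, 0.385 and 0.411 CPM in WT HFD and 1.41, 0.88, 0.915, 1.04 and 1.35 CPM in Adn-Lpin1-/- HFD. Mouse 2 of WT HFD overlapped the other genotype. Its change of 0.95 ± 0.31 (edgeR adjusted p = 0.0405) was 0.83 and not called without the 3 mice (adjusted p = 0.0677), nor without mouse 1, 3, 4 or 5 of WT HFD or mouse 1, 2 or 5 of Adn-Lpin1-/- HFD (0.82 to 1.02, adjusted p = 0.0522 to 0.1). Gsta1 was 1.65 ± 0.63 on the HFD (edgeR adjusted p = 0.071), with 0.173 to 1.81 CPM in WT and 1.81 to 3.3 CPM in Adn-Lpin1-/- mice, and it was among the members called without the 3 mice. The paper, with a different fit and a larger n per group, lists Gsta1 among the upregulated genes on both diets.

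Of the 11 Kupffer cell and macrophage markers 8 rose on the HFD, as did 6 of 10 endothelial and 2 of 10 stellate cell markers, and 5 of 10 hepatocyte markers fell (Alb, Apoa1, Fgb, Cps1 and Cyp2e1). The Kupffer cell sum was 227 to 287 CPM in WT HFD and 292 to 673 CPM in Adn-Lpin1-/- HFD, the endothelial sum 147 to 218 against 245 to 271 CPM, the stellate sum 194 to 255 against 210 to 316 CPM and the hepatocyte sum 114581 to 141422 against 94086 to 124343 CPM, with no marker of these lists at 0 in every mouse. Of the 5 adipocyte markers tested, Cfd and Cidec rose on both diets and Adrb3 fell on the LFD, with sums over the list of 181 to 248 CPM in WT LFD, 287 to 436 in Adn-Lpin1-/- LFD, 180 to 255 in WT HFD and 243 to 532 in Adn-Lpin1-/- HFD. The paper reports Cidec as a hepatic steatosis gene raised in these livers, so here it does not mark adipocytes alone. Of the 5 adipocyte markers that were not tested, Plin1, Lep, Retn and Tshr stayed at or under 1 CPM in every mouse. Adipoq reached 4.32 CPM in a WT LFD mouse and stayed at or under 0.746 CPM in every mouse of the other groups. None of the 6 cholangiocyte and 3 mesothelial markers tested was called. By diet no marker of any of these lists was called in either genotype. The part of these shifts in the member changes was not tested.

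Whether the genotype effect differed between the diets was tested directly, and no member and no gene was called (0 of 42 members, 0% of all genes, edgeR's quasi-likelihood test). At an unadjusted p under 0.05 there were 6 members and 938 genes (7.19%), DESeq2's Wald test called 0 members and 30 genes, and the lowest adjusted p of a member was 0.582. The 6 members were Ugt1a5, Gstm1, Gstm4, Gstm6, Gstm7 and Ugt2a3. For Gstm6 the genotype effect on the HFD minus that on the LFD was -0.45 ± 0.21 (edgeR adjusted p = 0.691), with an interval of -0.90 to -0.004, and for Gstm7 -0.41 ± 0.19 (edgeR adjusted p = 0.687), with an interval of -0.80 to -0.01 (both 95% and not adjusted for the number of genes). These 2 genes, called on the HFD and not on the LFD, were therefore not shown to differ between the diets. For Ugt2a3 the difference was 0.41 ± 0.16 (edgeR adjusted p = 0.588).

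**Figure D4:**
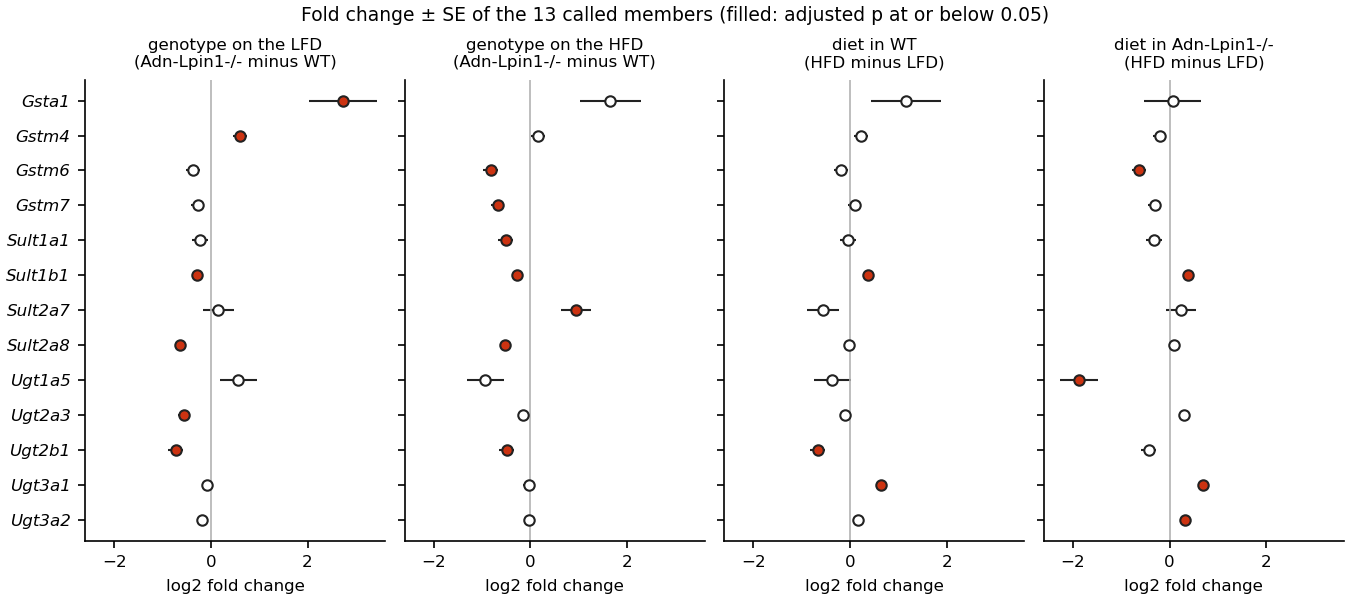
Log2 fold change ± SE (edgeR) of the 13 members called in at least 1 contrast, with the genotype contrasts in the first 2 panels, the diet contrasts in the last 2 and filled points for an adjusted p at or below 0.05. Sult2a8, Ugt2b1 and Sult1b1 were called and below 0 in both genotype panels, and Sult1b1 and Ugt3a1 were called and above 0 in both diet panels.

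Diet was then compared within each genotype. By the paper's diet composition the HFD held more fat and less carbohydrate than the LFD, so effects of fat and of carbohydrate cannot be told apart. These contrasts share mice with the genotype contrasts, so a high or low group enters both. In WT mice 3 of 42 members were called (7.14%), against 1.10% of all genes. Sult1b1 and Ugt3a1 rose, where 0.429% of all genes rose, and Ugt2b1 fell, where 0.674% of all genes fell. In Adn-Lpin1-/- mice 5 members were called (11.9%), against 2.46% of all genes. Sult1b1, Ugt3a1 and Ugt3a2 rose, where 1.20% of all genes rose, and Gstm6 and Ugt1a5 fell, where 1.26% of all genes fell. The member medians were -0.02 in WT and 0.04 in Adn-Lpin1-/-, against 0.00 and 0.01 over all genes.

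Both genes of the Ugt3a subfamily, which lie side by side on chromosome 15 and use sugars other than glucuronate, were called higher on the HFD in Adn-Lpin1-/- mice, and Ugt3a1 also in WT mice. Ugt3a1 (ENSMUSG00000072664, 9273319 to 9315032) read 31.2, 33.1, 36.9, 33.7 and 44.2 CPM in WT LFD and 59.3, 62.5, 59.6, 57.8 and 41.5 CPM in WT HFD. Only the mice numbered 5 crossed between the diets. In Adn-Lpin1-/- mice it read 36.1, 29.6, 31.2, 34.4 and 38.5 CPM on the LFD and 60.3, 53.4, 63.7, 49.7 and 47.8 CPM on the HFD, with no overlap. The increase was 0.65 ± 0.12 in WT (edgeR adjusted p = 0.0124) and 0.70 ± 0.12 in Adn-Lpin1-/- (edgeR adjusted p = 0.00244), and without the 3 mice 0.83 (adjusted p = 0.000174) and 0.74 (adjusted p = 0.000173). The genotypes did not differ in Ugt3a1 beyond the spread between mice on the LFD (-0.08 ± 0.12, adjusted p = 0.698) or the HFD (-0.03 ± 0.11, adjusted p = 0.875).

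Ugt3a2 (ENSMUSG00000049152, chromosome 15, 9335550 to 9370955) was the more abundant gene of this pair, at 89.8 against 16.9 RPKM for Ugt3a1. It read 228, 221, 228, 240 and 284 CPM in Adn-Lpin1-/- LFD and 304, 299, 307, 297 and 294 CPM in Adn-Lpin1-/- HFD. Mouse 5 of the LFD group stood 10 CPM below the lowest HFD mouse and all others lay further down. The increase was 0.32 ± 0.08 (edgeR adjusted p = 0.0271) and 0.38 without the 3 mice (adjusted p = 0.00465). It was not called where the LFD group lacked any of mice 1 to 4 or the HFD group lacked mouse 1 or 3 (0.29 to 0.32, adjusted p = 0.0505 to 0.08). In WT it was 0.17 ± 0.08 and not called (edgeR adjusted p = 0.257), with 249 to 287 CPM on the LFD and 277 to 356 CPM on the HFD.

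Sult1b1 was higher on the HFD in both genotypes by nearly the same amount, with no overlap between diets within a genotype. From the values above, WT mice went from 25.2 ± 2.76 to 32.6 ± 1.55 CPM and Adn-Lpin1-/- mice from 20.7 ± 1.87 to 26.8 ± 2.03 CPM (SD, n = 5). The change was 0.37 ± 0.08 in either genotype (edgeR adjusted p = 0.0256 in WT and 0.0177 in Adn-Lpin1-/-), 0.41 and 0.37 without the 3 mice (adjusted p = 0.0238 and 0.0262) and 0.39 in both with the GC trend removed. No other member was called in all 4 two-group contrasts. The diet calls were lost in WT where the LFD group lacked mouse 1 or 2 or the HFD group lacked mouse 1, 3 or 4 (0.32 to 0.38, adjusted p = 0.0548 to 0.0693), and in Adn-Lpin1-/- where the LFD group lacked mouse 2 or 3 (0.32 and 0.36, adjusted p = 0.0512 and 0.0506).

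Ugt2b1 fell on the HFD in WT mice, from 616 ± 125 to 387 ± 59.7 CPM, by 0.67 ± 0.16 on the log2 scale (edgeR adjusted p = 0.0402), and by 0.85 without the 3 mice (adjusted p = 0.00723). With any of mice 1 to 4 of either WT group or mouse 3 of Adn-Lpin1-/- LFD left out it was not called (-0.59 to -0.70, adjusted p = 0.0515 to 0.105). In Adn-Lpin1-/- mice the change was -0.44 ± 0.16 and not called (edgeR adjusted p = 0.16). Gstm6 fell on the HFD in Adn-Lpin1-/- mice, from 97.1, 65.9, 110, 72 and 76.1 CPM to the 37.7 to 70.3 CPM given above, by 0.64 ± 0.15 on the log2 scale (edgeR adjusted p = 0.0314) and by 0.68 without the 3 mice (adjusted p = 0.0243). The groups overlapped, and the call was lost where the LFD group lacked mouse 1 or 3 or the HFD group lacked mouse 1, 2 or 3 (-0.52 to -0.64, adjusted p = 0.0517 to 0.0981). In WT it was -0.19 ± 0.15 (edgeR adjusted p = 0.594).

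Ugt1a5 (ENSMUSG00000089943, chromosome 1, 88166012 to 88218997), a product of 1 of the alternative first exons of the Ugt1a locus, had the largest diet change among called members. It read 31.5, 45.8, 58.9, 53.5 and 32.8 CPM in Adn-Lpin1-/- LFD and 14.6, 18.3, 15.1, 7.7 and 5.15 CPM in Adn-Lpin1-/- HFD. There was no overlap, and the change was -1.87 ± 0.39 (edgeR adjusted p = 0.0164), which is 3.65-fold lower, and -1.97 without the 3 mice (adjusted p = 0.00419). In WT mice it read 28.2, 32.8, 12.6, 35.6 and 40.5 CPM on the LFD and 24, 22.9, 20.6, 42.1 and 6.8 CPM on the HFD, which overlapped (-0.37 ± 0.38, adjusted p = 0.695). The genotype change of Ugt1a5 was 0.57 ± 0.38 on the LFD and -0.93 ± 0.39 on the HFD, neither called, and their difference of -1.50 ± 0.54 did not pass either (edgeR adjusted p = 0.582). Of its exonic bases 59.5% are shared with other Ugt1a genes, where reads could not be assigned to 1 gene, so these counts come mainly from its own first exon.

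**Figure D5:**
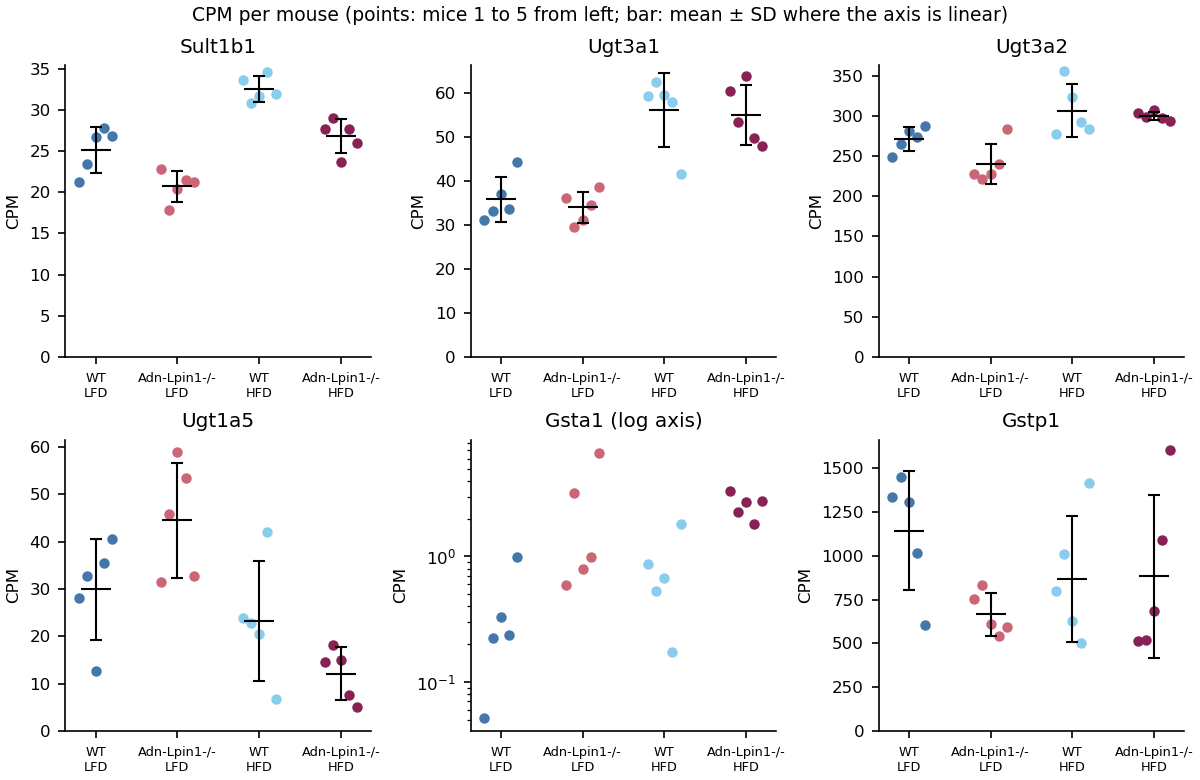
CPM of Sult1b1, Ugt3a1, Ugt3a2, Ugt1a5, Gsta1 (log axis) and Gstp1 in each mouse (points, mice 1 to 5 from left), with the group mean ± SD (bars, n = 5) where the axis is linear and starts at 0. Sult1b1 and Ugt3a1 sat higher on the HFD in both genotypes, Ugt1a5 was lowest in Adn-Lpin1-/- HFD (5.15 to 18.3 CPM), and Gstp1 ranged widely within groups.

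The 3 diet calls in WT became 5 without the 3 mice, with Gstk1 and Gstt3 added, and the 5 in Adn-Lpin1-/- became 8, with Gsta2, Gstk1 and Gsto1 added. The genotype calls stayed at 6 on the LFD, where Gsto1 entered and Sult1b1 left, and went to 8 on the HFD, where Gsta1, Gsta3 and Ugt1a5 entered and Sult2a7 and Ugt2b1 left.

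By subfamily, the Sult2 sum, nearly all Sult2a8, did not overlap between the genotypes on the LFD (496 to 595 CPM in WT, 337 to 373 in Adn-Lpin1-/-) or the HFD (489 to 636 and 325 to 476 CPM). The Ugt2a sum, mostly Ugt2a3, did not overlap by genotype on the LFD (170 CPM or more in every WT mouse, 155 CPM or less in every Adn-Lpin1-/- mouse) but did on the HFD (160 to 231 and 139 to 204 CPM), and the Ugt3a sum did not overlap by diet in Adn-Lpin1-/- (251 to 322 and 342 to 371 CPM) but did in WT (281 to 332 and 326 to 418 CPM). The Sult1 sum was 407 to 614, 323 to 466, 415 to 529 and 272 to 461 CPM and the Ugt2b sum 1580 to 1938, 1300 to 1643, 1342 to 1775 and 1233 to 1593 CPM in WT LFD, Adn-Lpin1-/- LFD, WT HFD and Adn-Lpin1-/- HFD. Both overlapped in every contrast, as did the subfamily sums that follow. The Gstt genes summed to 313 to 430, 340 to 414, 291 to 438 and 340 to 409 CPM in WT LFD, Adn-Lpin1-/- LFD, WT HFD and Adn-Lpin1-/- HFD. Gstz1 came to 629 to 686, 589 to 661, 682 to 736 and 628 to 714 CPM, and the Gsto genes to 67.7 to 80.7, 56.2 to 71.2, 74.8 to 102 and 65.6 to 80.1 CPM in the same order. The Gsta sum, mostly Gsta3, was 754 to 1101, 804 to 1127, 896 to 1363 and 970 to 1154 CPM, the Gstm sum, mostly Gstm1, 1277 to 1531, 1342 to 1956, 1383 to 2109 and 1112 to 1595 CPM, and the Gstp sum 669 to 1547, 601 to 908, 555 to 1553 and 567 to 1740 CPM. The Gstp sum had the largest SD of the Gst subfamilies in every group but Adn-Lpin1-/- LFD. The Ugt1a sum, which lacks reads on exons that these genes share, was 131 to 167, 135 to 166, 96.4 to 155 and 101 to 146 CPM. Sult5a1 ran from 12.1 to 19.1, 7.67 to 23.7, 7.72 to 14.6 and 9.41 to 30.2 CPM.

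The counts of the gene lists that follow stand against 6.27% of all genes higher and 8.11% lower in the LFD genotype contrast, 9.87% and 8.78% in that on the HFD, 0.429% and 0.674% by diet in WT and 1.20% and 1.26% by diet in Adn-Lpin1-/-. No gene of any list was called for the difference of the genotype effect between diets, which is also the difference of the diet effect between genotypes, so a call in 1 contrast of a pair and not in the other is not shown to be a difference. Of 8 tested genes for making and moving PAPS, the sulfate donor, 2 were lower in LFD-fed and 3 in HFD-fed Adn-Lpin1-/- mice, with medians of -0.06 and -0.14. Papss2, which makes PAPS, was 214 ± 25.8 CPM in WT LFD and 168 ± 18.5 in Adn-Lpin1-/- LFD (-0.35 ± 0.10, edgeR adjusted p = 0.0195) and 206 ± 22.2 and 156 ± 13.1 CPM on the HFD (-0.40 ± 0.10, edgeR adjusted p = 0.00781). The sulfate transporter Slc26a1 also fell on both diets (-0.30 ± 0.09 and -0.31 ± 0.09, edgeR adjusted p = 0.0343 and 0.0216) and rose with the HFD in both genotypes, and Slc35b2, the Golgi PAPS carrier, fell on the HFD.

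Of 12 genes of glutathione supply, Pgd rose and Gclm, a subunit of the rate-limiting ligase, fell by genotype on the LFD, and none was called on the HFD. With the HFD G6pdx fell in both genotypes (-1.44 ± 0.28 in WT, edgeR adjusted p = 0.0157, and -1.17 ± 0.27 in Adn-Lpin1-/-, edgeR adjusted p = 0.0279) and Gclm rose in Adn-Lpin1-/-. Of 7 genes of UDP-glucuronate supply, only Ugdh, which oxidises UDP-glucose, was called, higher by genotype on the LFD (0.48 ± 0.16, edgeR adjusted p = 0.0448).

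Conjugation outside the 3 families was described by 16 genes, namely methyl-, acetyl- and acyl-transferases and acyl-CoA synthetases. Of these 5 fell and none rose on the LFD, and 4 fell and none rose on the HFD, with medians of -0.23 and -0.15. Gnmt, a glycine methyltransferase (-0.44 ± 0.10 and -0.50 ± 0.10, edgeR adjusted p = 0.00565 and 0.00226), the glycine acyltransferase Glyat (-0.47 ± 0.09 and -0.29 ± 0.09, edgeR adjusted p = 0.00235 and 0.0374) and the acyl-CoA synthetase Acsm1 (-0.37 ± 0.09 and -0.31 ± 0.09, edgeR adjusted p = 0.00867 and 0.0216) were lower on both diets. Diet called none of them in WT and 3 in Adn-Lpin1-/-, Baat and Acsm5 higher and As3mt lower. Of 4 microsomal and related glutathione transferases, which the symbol rule does not take, Mgst3 rose by genotype on the LFD and by diet in WT, and Hpgds and Alox5ap rose by genotype on the HFD, the latter being genes of immune cells.

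Of 15 export and uptake carriers 1 rose and 2 fell on the LFD, and 3 rose and 2 fell on the HFD. The uptake carrier Slco1a1 fell on both diets (-0.58 ± 0.12 and -0.73 ± 0.12, edgeR adjusted p = 0.0036 and 0.000547). Of 7 deconjugating enzymes 3 rose on the LFD and 1 on the HFD, with the lysosomal arylsulfatase Arsa higher on both (0.40 ± 0.08 and 0.27 ± 0.08, edgeR adjusted p = 0.00405 and 0.0292). Diet called none of the carriers or deconjugating enzymes in either genotype.

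Among 17 tested regulators of these enzymes, Mafk, a partner of NRF2, rose on both diets (0.36 ± 0.08 and 0.37 ± 0.08, edgeR adjusted p = 0.00536 and 0.00386), Mafg rose on the HFD, and the hepatocyte factor Cebpa fell on both (-0.31 ± 0.08 on either, edgeR adjusted p = 0.011 and 0.00959), with no call by diet. Of 14 NRF2 response genes outside the families 4 rose and 1 fell on the LFD and 1 rose on the HFD, Ephx1, the microsomal epoxide hydrolase, being higher on both (1.01 ± 0.19 and 0.66 ± 0.19, edgeR adjusted p = 0.00163 and 0.0202). With the HFD 1 NRF2 response gene rose in either genotype, Aox1 in WT and Akr1c13 in Adn-Lpin1-/-. Of 4 aryl hydrocarbon receptor response genes, Nqo1 rose and Cyp1a2 fell on the LFD and none was called elsewhere. Of 16 response genes of the xenobiotic receptors CAR and PXR, 1 rose and 4 fell on the LFD, Cyp2c54 fell on both diets (-1.38 ± 0.23 and -0.90 ± 0.23, edgeR adjusted p = 0.000601 and 0.0103), and 4 rose with the HFD in Adn-Lpin1-/- (Cyp2b9, Cyp2b13, Cyp2c37 and Cyp2c50). In WT the same 4 were at 2.57 ± 1.17, 3.91 ± 1.31, 0.70 ± 0.22 and 0.41 ± 0.17 and were not called (edgeR adjusted p = 0.289, 0.154, 0.126 and 0.232), and the difference between the genotypes was not called for any of them (edgeR adjusted p = 0.66 to 0.987). Cyp2b13 was near the limit of detection, at 0.197 CPM or less in every LFD-fed mouse. Only HFD-fed mice passed 1 CPM (0 to 1.29 CPM for WT, 0.484 to 3.47 CPM for Adn-Lpin1-/-). Its place among the tested genes thus depended on the diet where it was high, and its fold changes are uncertain. Between Adn-Lpin1-/- mice Cyp2b9 ran from 0.0159 to 5.62 CPM on the LFD and from 12.3 to 133 CPM on the HFD.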

How the data were processed

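Liver RNA was sequenced after poly-A selection. Per the labels and the methods text, the authors aligned reads to GRCm38 with STAR 2.5.1a, counted uniquely aligned, unambiguous reads on Ensembl release 76 genes with featureCounts 1.4.6-p5, and deposited a count, a CPM and an RPKM value for each gene and library. The strand setting of counting was not given in the sources used here. Symbols came from GENCODE mouse release 21 (40254 of 41388 identifiers), and gene coordinates on GRCm38 from the deposited files. The 355 rRNA genes (0.265% to 0.465% of counts) were left out.

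Deposited counts of the 20 single-mouse libraries, in 4 groups by label, were fitted in 1 model with edgeR 4.0.16 (TMM, quasi-likelihood test, Benjamini-Hochberg adjustment over 13052 genes) in R 4.3.3. Deposited RPKM served for levels between genes, and deposited CPM was checked only for its range. Single members were also compared by a two-sided exact permutation test of 5 mice against 5, whose smallest p is 0.00794. Python 3.11.15 with pandas 2.3.3, scipy 1.17.1 and matplotlib 3.10.9 did the rest. The scripts were tested on simulated counts. Library pairs showed no near duplicates. p-values measure the spread between single mice.

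Alternatives were DESeq2 1.42.0 size factors, its Wald test, limma 3.58.1 voom with quality weights with and without the pools, 2 other limits on low counts, only the 2 groups compared, the replicate block, removal of the GC trend, each mouse left out and, added after seeing the data, 3 mice left out together. Named were members called in any contrast, the highest member of each subfamily by RPKM, members under the limit, and list genes called in both genotype contrasts or where a result turned on them. Other list genes were named after their values were seen. Members and lists were chosen with earlier results of these data known. The lists covered co-substrate supply, other conjugation, microsomal transferases, export, deconjugation, regulators and response genes, PPAR alpha response, sex-biased genes and cell type markers. Some genes stood in more than 1 list, among them Cyp2b9, Cyp2b13, Cyp4a12a, Slco1a1 and Nqo1, so counts of different lists are not independent. The PPAR alpha list also held 1 of the members. 1 listed symbol, Sts, had no match.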

Additional observations from a re-analysis of the deposited data

Results flagged for a closer look

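A single mouse lay far from the other 4 of its group in 3 of the 92 member and group combinations checked for an outlying mouse, where chance alone gives about 1 in 20. Gstz1 was 629 CPM in mouse 2 of WT LFD, below the 670 to 686 CPM of the others (gap over range 0.716). Ugt2a3 was 169 CPM in mouse 5 of WT LFD, below 204 to 216 CPM in the others (0.741), and still above every Adn-Lpin1-/- LFD mouse. Ugt3a1 was 41.5 CPM in mouse 5 of WT HFD, below 57.8 to 62.5 CPM in the others (0.773), within the range of WT LFD. The last 2 are among the mice that stood apart over all members. Causes were not tested.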

How the results depend on the processing

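The members called were 6 and 7 by genotype (LFD, HFD), 3 and 5 by diet (WT, Adn-Lpin1-/-) and 0 for the difference. With voom and the pools as sixth libraries, which repeat the same mice, they were 16, 16, 11, 19 and 2 (Gstm4 and Ugt1a5). The fit of only the 2 groups compared gave 2 by diet in Adn-Lpin1-/-, DESeq2's Wald test 5 by diet in WT, and leaving out the 3 mice together 5 and 8 by diet. With 1 mouse left out in turn the counts ran from 5 to 8, 4 to 8, 1 to 4, 2 to 6 and 0 to 0. Diet in WT gave 1 where WT LFD lacked mouse 1 or 2 and where WT HFD lacked mouse 1, 3 or 4. Without mouse 3 of Adn-Lpin1-/- LFD diet in Adn-Lpin1-/- gave 2, and without mouse 2 of that group or mouse 1 or 3 of Adn-Lpin1-/- HFD it gave 3. Without mouse 2 of Adn-Lpin1-/- HFD genotype on the HFD gave 4. The causes were not tested.

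Mouse numbers did not pair the samples: same-number correlations ran from -0.415 to 0.281, 6 of 30 were over 0.1, and 6 of 30 were the best match. With the replicate block the counts were 6, 6, 2, 4 and 0.

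Of 630 recomputed fold changes of called members 560 kept direction and call, 70 kept direction and lost the call, and 0 reversed. Gstm4 and Ugt2a3 on the LFD, Gstm6 and Gstm7 on the HFD, Sult2a8 on both, Ugt2b1 on the LFD, Ugt3a1 in both genotypes and Ugt1a5 in Adn-Lpin1-/- kept their calls in all 30 alternatives. Sult2a7 on the HFD and Ugt2b1 by diet in WT lost theirs in 11 each, Ugt2b1 on the HFD and Ugt3a2 in 8, Gstm6 by diet and Sult1b1 on the LFD in 7, and Sult1a1 on the HFD and Sult1b1 by diet in WT in 6. Depth limits Gsta1 (2 to 409 counts) and Sult2a7 (20 to 109 counts).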

Other observations

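Sex-biased liver genes are controlled by the pattern of growth hormone release. Of 20 tested male-biased genes 5 fell and none rose by genotype on the LFD, and 6 fell and 1 (Cyp2d9) rose on the HFD, with median log2 fold changes of -0.45 and -0.35 against 0.01 and 0.00 over all genes, where 8.11% and 8.78% of all genes fell. Hsd3b5, a steroid dehydrogenase of male liver, was 268 ± 69.1 CPM in WT LFD and 107 ± 44.2 in Adn-Lpin1-/- LFD (SD, n = 5 mice; -1.32 ± 0.35, edgeR adjusted p = 0.0162), and 189 ± 37.1 and 91.8 ± 61 CPM on the HFD (-1.04 ± 0.35, edgeR adjusted p = 0.0422). Susd4 fell from 44.4 ± 4.21 to 19.7 ± 4.79 CPM on the LFD (-1.18 ± 0.16, edgeR adjusted p = 0.000112) and from 38.2 ± 7.1 to 22 ± 4.75 CPM on the HFD (-0.80 ± 0.16, edgeR adjusted p = 0.00275). Moxd1 and Slco1a1 also fell on both diets. With the HFD Cyp4a12b fell in both genotypes, Mup21 in WT and Cyp4a12a in Adn-Lpin1-/-. Of 21 tested female-biased genes 2 rose and 1 fell by genotype on the LFD, and 1 fell on the HFD. Their median log2 fold changes were 0.26 and 0.21, against 0.01 and 0.00 over all genes. None was called by diet in WT, and Cyp2b9, Cyp2b13 and Cyp2a4 rose with the HFD in Adn-Lpin1-/-. Cyp2b9 and Cyp2b13 are the same genes as in the CAR and PXR list above, and the caution given there for Cyp2b13 holds here too. No gene of the male-biased or female-biased list was called for the difference between the genotypes. Atp6v0d2, from the female-biased list, fell on both diets (-0.85 ± 0.27 and -1.16 ± 0.25, edgeR adjusted p = 0.0396 and 0.00417).

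Of 12 tested PPAR alpha response genes Pdk4, the pyruvate dehydrogenase kinase of fasting, rose by genotype on both diets (2.07 ± 0.58 and 1.91 ± 0.57, edgeR adjusted p = 0.0211 and 0.0258), Vnn1 rose on the LFD (1.36 ± 0.37, edgeR adjusted p = 0.0188), and diet called none in WT and Cyp4a12a, lower, in Adn-Lpin1-/-. The pools gave values between the lowest and the highest mouse of their group for 41 of 42 tested members in WT LFD and 40 of 42 in each other group.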
